A study of Homo sapiens with 24 samples.

Results

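The peaks described here are stretches of human RNA bound by Argonaute 2 (Ago2) that carry a match to the seed of the miR-130/miR-301 family of microRNAs. They were chosen from the authors' table of 24041 Ago2 crosslinking and immunoprecipitation (CLIP) peaks, where a column names which of the 50 most abundant microRNA families has a 7-base seed match in the peak. All peaks whose entry held hsa-miR-301a-3p were taken, in every annotation class, and no measured value entered the choice. The rule found 417 peaks in 376 genes, of 6088 genes with a peak.

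The cells were 293S, an established line derived from human embryonic kidney cells, either exposed for 30 min to sodium arsenite at 1 mM or left untreated. Arsenite is a poison that causes oxidative stress, arrests the start of translation and gathers mRNAs into stress granules. Per the labels, each condition had 4 biological replicates of each of 3 assays, 24 samples in all: Ago2 CLIP of mRNA fragments, CLIP libraries from a separately excised band, named LO in the labels, which gave the microRNAs on Ago2, and RNA sequencing, whose values were not analysed here and which was paired by replicate with the mRNA CLIP. CLIP of mRNA with an Ago2 antibody gives, for each peak, the authors' log ratio of arsenite over untreated and the log average of its level. Both are a single value over the replicates. No replicate spread, depth or test is therefore available for any peak, and the peaks are described by counts and medians beside all peaks of the table.

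A microRNA guides Argonaute to an mRNA by pairing of its seed, bases 2 to 8, with a complementary site that lies most often in the 3' untranslated region (3'UTR). Bound Argonaute recruits TNRC6 proteins and the deadenylases that shorten the mRNA's tail, and the mRNA is translated less and decays sooner. The miR-130/miR-301 family is widely expressed and has been studied for targets in TGF-beta and bone morphogenetic protein signalling, lipid uptake, autophagy and the cell cycle.

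The mature sequences show what the peaks have in common. The table's family entry holds 7 names, of which 6 matched a mature sequence in RefSeq. Bases 2 to 8, in capitals below, were the same in all 6. The 4 shown are those also measured on Ago2, read 5′ to 3′, with positions on the RefSeq assembly GRCh38.p14: miR-301a-3p at chr17:59151149-59151171 on the minus strand, miR-454-3p at chr17:59137787-59137809 on the minus strand, miR-301b at chr22:21653025-21653047 on the plus strand and miR-130b-3p at chr22:21653354-21653375 on the plus strand.
miR-301a-3p: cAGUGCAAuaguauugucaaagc
miR-454-3p: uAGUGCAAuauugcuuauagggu
miR-301b: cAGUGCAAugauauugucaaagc
miR-130b-3p: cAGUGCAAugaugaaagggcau
The table holds no peak sequence and no genome of its build, hg19, was used here, so the place of a match within its peak was not read. The target site is the reverse complement of the seed. The seeds of the miR-19 and miR-17 families overlap with it, and both are shown in capitals because these families were the ones most often listed in the same peaks.
miR-19b-3p: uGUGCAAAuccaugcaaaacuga
miR-17-5p: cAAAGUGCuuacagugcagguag
A site for miR-130/miR-301 and a site for miR-19 share 6 letters, with the miR-19 site starting 1 base upstream, so both fit into 8 bases. A site for miR-17 shares 5 letters at the downstream end, and both fit into 9 bases. In the merged sites below, capitals mark the 7 letters that pair with the miR-130/miR-301 seed, and lower case marks the letters that the other families add.
miR-130/miR-301 site: UUGCACU
with a miR-19 site: uUUGCACU
with a miR-17 site: UUGCACUuu
with both: uUUGCACUuu

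The family's microRNAs were present on Ago2 at modest levels and showed no change past the adjusted p threshold. In the authors' deposited table, miR-301a-3p had a mean of 41800 in arsenite-treated cells and 33861 in untreated cells, a log2 fold change of 0.30 with an unadjusted p of 0.16 and an adjusted p of 1 from DESeq. It was the most abundant of the 5 listed family microRNAs, with 53.6% of the family's summed means in the authors' deposited table. The authors' deposited table gave miR-454-3p 18657 in arsenite-treated cells and 16911 in untreated cells (log2 fold change 0.14), and miR-301b 10257 in arsenite-treated cells and 8154 in untreated cells (0.33). All 3 were somewhat higher in arsenite-treated cells, by amounts that gave no adjusted p under 0.05. The least abundant pair were miR-130a-3p, at 3121 in arsenite-treated cells and 2732 in untreated cells (0.19), and miR-130b-3p, at 2882 in arsenite-treated cells and 2869 in untreated cells (0.01), in the authors' deposited table. The other 2 names of the family, miR-3666 and miR-4295, had no row of their own there.

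Summed over the 5, the authors' deposited table gave 76717 in arsenite-treated cells and 64528 in untreated cells, 1.19-fold, or 0.25 on the log2 scale. No microRNA passed this threshold: 0 of 1213 (0%) had an adjusted p under 0.05 in the authors' deposited table, and 24 (1.98%) had an unadjusted p under 0.05. The family held 0.394% of the summed means of mature microRNAs and was 21st of the 50 families by this measure in the authors' deposited table. The miR-19 family held 8.99% and the miR-17 family 5.70% in the authors' deposited table, so both families that share letters with the site were far more abundant on Ago2. The opposite strands of the family's hairpins, which carry other seeds, were scarcer: in the authors' deposited table, miR-454-5p had 1105 in arsenite-treated cells and 986 in untreated cells, and miR-301a-5p had 90.5 in arsenite-treated cells and 125 in untreated cells.

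**Figure D1:**
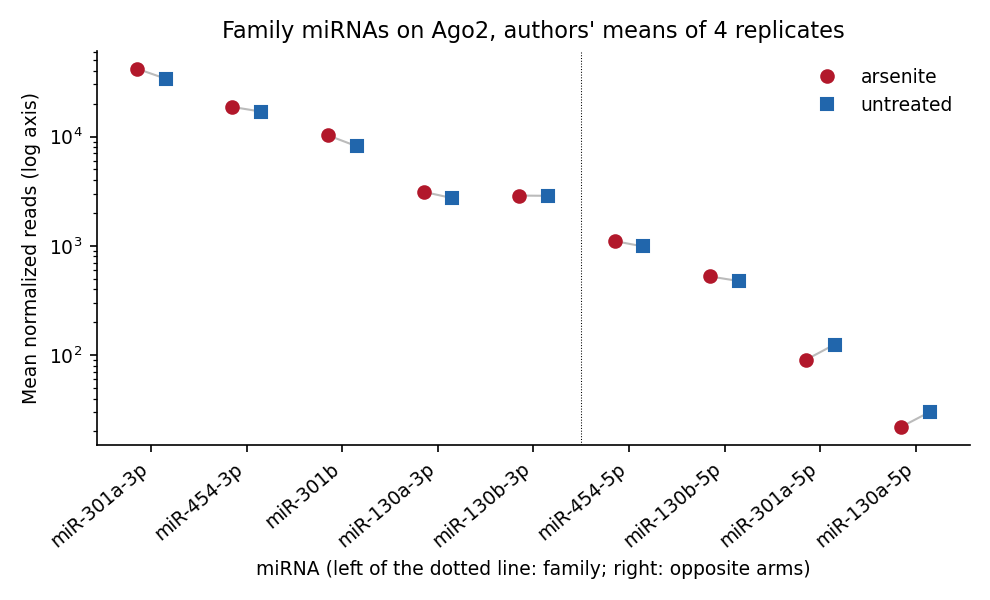
Authors' mean level on Ago2 (log axis) of the 5 measured miR-130/miR-301 microRNAs and of the opposite strands of their hairpins, with arsenite-treated and untreated cells as separate points. In the authors' deposited table miR-301a-3p led in both conditions, at 41800 with arsenite and 33861 without.

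The authors' normalized Ago2 signal at peaks with a miR-130/miR-301 seed match was higher in arsenite-treated cells at nearly all of them. The zero of this measure is not known, as set out below, so the peaks are read beside all peaks. The log ratio is read here in natural log units, so 1 unit is a factor of e. This base was inferred from recurring steps between values and is not stated in the sources used here, and the fold values rest on it. The median over the 417 peaks was 1.55, a 4.71-fold higher normalized signal in arsenite-treated cells. Over all peaks the median was 0.65, or 1.92-fold. This difference of 0.89 between the medians was 0.47 when only the peak of the highest level was kept in each gene of both sets, and 0.51 between peaks that matched miR-130/miR-301 alone and all peaks that matched exactly 1 family. The middle 50% of these peaks lay between 0.84 and 2.14, against -0.16 and 1.49 over all peaks. A log ratio above 0 was found at 385 peaks (92.3%), against 70.3% of all peaks. A log ratio of 1 or more was found at 292 (70.0%), against 39.1% of all peaks. At the other end, 4 peaks (0.959%) had a log ratio of -1 or less, against 7.43% of all peaks. The chosen peaks thus lay above all peaks at both quartiles and at the median. Their range, from -1.79 to 3.93, still included log ratios below 0.

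**Figure D2:**
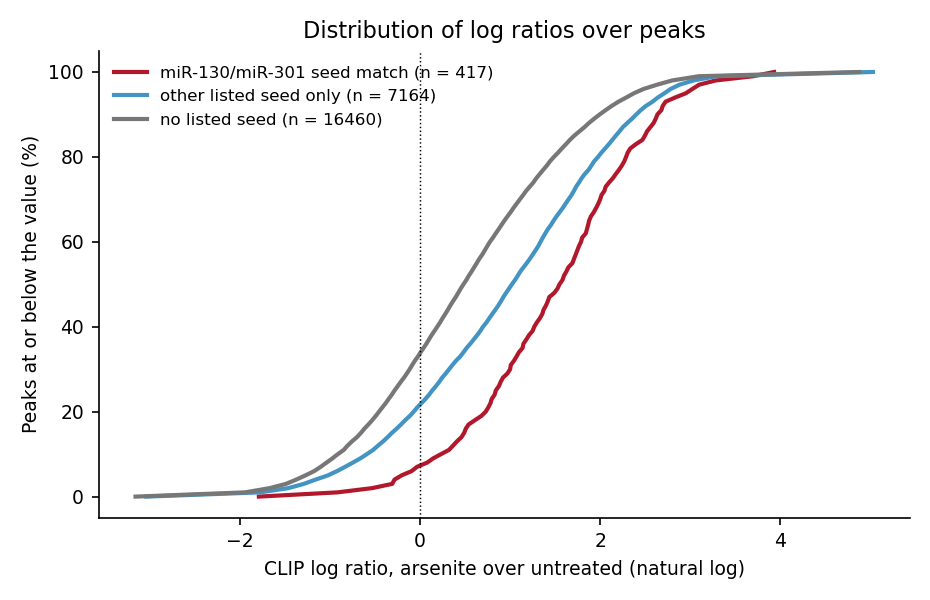
Cumulative share of peaks (vertical axis, percent) at or below each log ratio, arsenite over untreated in natural log units (horizontal axis), for the 417 peaks with a miR-130/miR-301 match, the 7164 that match other listed families only and the 16460 with no listed match. The miR-130/miR-301 curve lies furthest to the right over most of its length, with a median of 1.55, against 1.02 and 0.48 for the other curves.

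The zero of the log ratio depends on a scaling that the sources used here do not give. Comparisons between peaks do not depend on it. The values also hold a term common to the peaks of a gene: 563 peaks in 280 sets had both values identical, and no set spanned more than 1 gene. A difference between peaks of the same gene is free of such a term. Steps between peaks also show that few reads lie behind many values. In untreated cells, the step between 0 and 1 read in 1 of 4 replicates came to about 0.51 in natural log units, and it recurred in 278 genes.

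Peaks with a match but to other families, and peaks with none, set the scale. The 16460 peaks with no listed seed match had a median log ratio of 0.48, and 33.3% of them reached 1. The 7164 peaks that matched other listed families but not miR-130/miR-301 had a median of 1.02, and 50.7% reached 1. Ordered by the median of all their peaks, the miR-130/miR-301 family was 7th of the 50 families. Above it stood miR-92a at 1.72, miR-17 at 1.67, miR-30 at 1.60, miR-151a-3p at 1.58, miR-19 at 1.57 and miR-340 at 1.56, and next below it was miR-26a at 1.53. The families from miR-151a-3p to miR-26a lie within 0.05 of each other, and their order is not resolved. The values of miR-151a-3p and miR-340 rest on 21 and 62 peaks. Their peaks that matched no other family had medians of 0.59 over 10 peaks and 0.98 over 32. For miR-130/miR-301 this median was 1.49 over 109 peaks.

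The level of a peak, its log average over both conditions, was close to that of other peaks. The log average also holds the term common to a gene's peaks. It therefore does not rank peaks of different genes by their reads, and this limits each selection by level made here. The log average had a median of -4.83 among the miR-130/miR-301 peaks and -5.18 among all peaks. With peaks divided into 4 classes of equal size by the levels of all peaks, the miR-130/miR-301 peaks had median log ratios of 1.25, 1.68, 1.57 and 1.58 from the lowest to the highest class. All peaks had medians of 0.59, 0.83, 0.66 and 0.53 over the same classes. The miR-130/miR-301 peaks were thus above all peaks in each class. Across the 417 peaks, level and log ratio had a Pearson correlation of 0.04, given as a description, since both values come from the same libraries.

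Most of the matches lay in 3'UTRs. Of the 417 peaks, 333 (79.9%) were in 3'UTRs, against 51.0% of all peaks, and 67 (16.1%) were in coding sequence, against 34.5% of all peaks. A further 9 were in 5'UTRs and 8 in noncoding exons. The median log ratio was 1.57 in 3'UTRs, against 0.88 over all 3'UTR peaks, and 1.58 in coding sequence, against 0.58 over all coding peaks. Peaks in coding sequence thus had as high a median as those in 3'UTRs, but the share above 0 was 86.6% in coding sequence and 94.6% in 3'UTRs. Coding peaks with no other family listed had a lower median, 1.21 over 25 peaks, than such peaks in 3'UTRs, 1.59 over 80 peaks. In 5'UTRs the median was 1.25 with 6 of 9 peaks above 0, and in noncoding exons 1.10 with 6 of 8 above 0. The noncoding peaks lay in MTLN at 3.11, the small nucleolar RNA gene SNORA31 at 2.94, LINC01004 at 1.98, ZNF225-AS1 at 1.19, XIST at 3 places and KCNQ1OT1 at -0.09. Medians over so few peaks carry little weight.

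The chosen peaks often named a second family, most of all miR-19. A miR-19 match was listed at 204 of them (48.9%), against 2.31% of all peaks, and these made up 36.7% of the 556 peaks with a miR-19 match. A miR-17 match was listed at 114 (27.3%), against 2.98% of all peaks, and these made up 15.9% of the 716 peaks with a miR-17 match. The shared letters shown above allow a single site to be listed for both, and the table does not say how many of these peaks hold 1 merged site.

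The log ratio was high with and without these partners. The 109 peaks that matched miR-130/miR-301 and no other listed family had a median of 1.49, with 91.7% above 0. The 120 that added miR-19 alone had a median of 1.57, with 86.7% above 0. The 50 that added miR-17 alone had a median of 1.72, with 98.0% above 0. The 45 with both had a median of 1.75, and all 45 were above 0. Peaks that listed any other family besides, 93 in all, had a median of 1.32 with 93.5% above 0. Over all peaks of the table that matched exactly 1 family, 6011 in number, the median was 0.99, which is below that of the miR-130/miR-301 peaks without a partner.

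The median was the same with and without a miR-19 match, and a miR-17 match went with a higher one. Peaks with a miR-19 match and those without it both had a median of 1.55, with 90.7% and 93.9% above 0. Both sets include peaks that also match miR-17 or a further family. Without those, the medians were 1.57 with miR-19 and 1.49 with no partner, as given above. Peaks with a miR-17 match had a median of 1.72, against 1.44 for those without it, and 98.2% against 90.1% were above 0. For scale, the 602 miR-17 peaks outside the miR-130/miR-301 set had a median of 1.65, and the 352 miR-19 peaks outside it had 1.57.

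**Figure D3:**
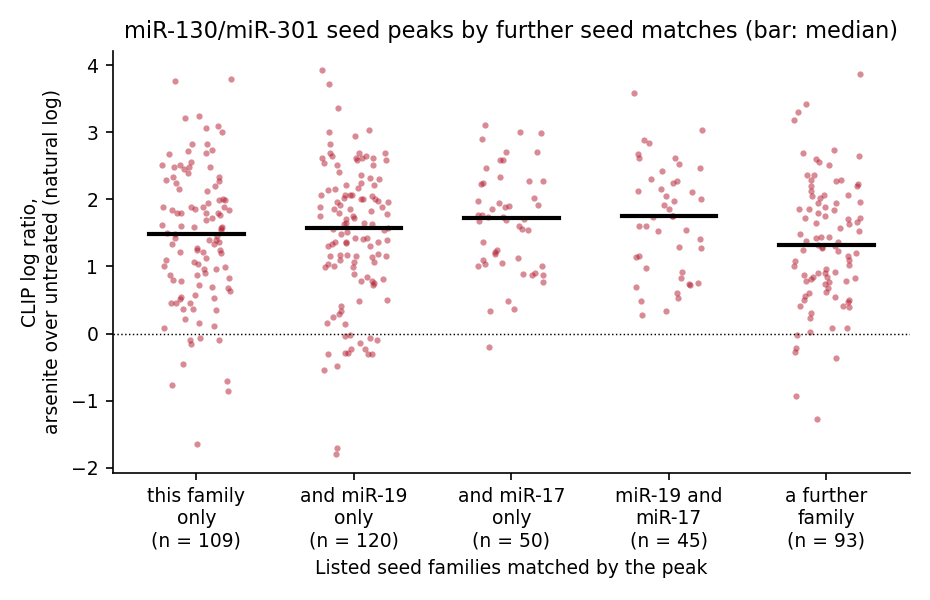
Log ratio, arsenite over untreated in natural log units, of each miR-130/miR-301 peak by which other families are listed with it. Points are peaks, and bars mark medians, which run from 1.32 with a further family to 1.75 with both miR-17 and miR-19.

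The comparison within genes asks how a miR-130/miR-301 peak stood against the other Ago2 peaks of the same RNA. Of the 376 genes, 298 had such other peaks. The miR-130/miR-301 peaks of these genes had a median log ratio of 1.47, against 0.92 for the other peaks of the same genes. The median difference within a gene was 0.50, with quartiles of -0.24 and 1.23, and the miR-130/miR-301 peak was higher in 202 genes (67.8%) and lower in 93. Against other peaks in the same region of the transcript, the difference was 0.35 over 267 genes. Against other peaks with no listed seed match, it was 0.68 over 265 genes, with the miR-130/miR-301 peak higher in 193 (72.8%).

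Peaks with no partner family gave a like difference. Over 80 genes, those that matched miR-130/miR-301 alone were higher than the gene's peaks without any listed match by a median of 0.69, and were higher in 57 genes (71.2%). The same measure was 0.84 over 169 genes for peaks that matched miR-19 alone and 0.79 over 313 genes for peaks that matched miR-17 alone. For peaks with any other listed family it was 0.32 over 2506 genes.

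**Figure D4:**
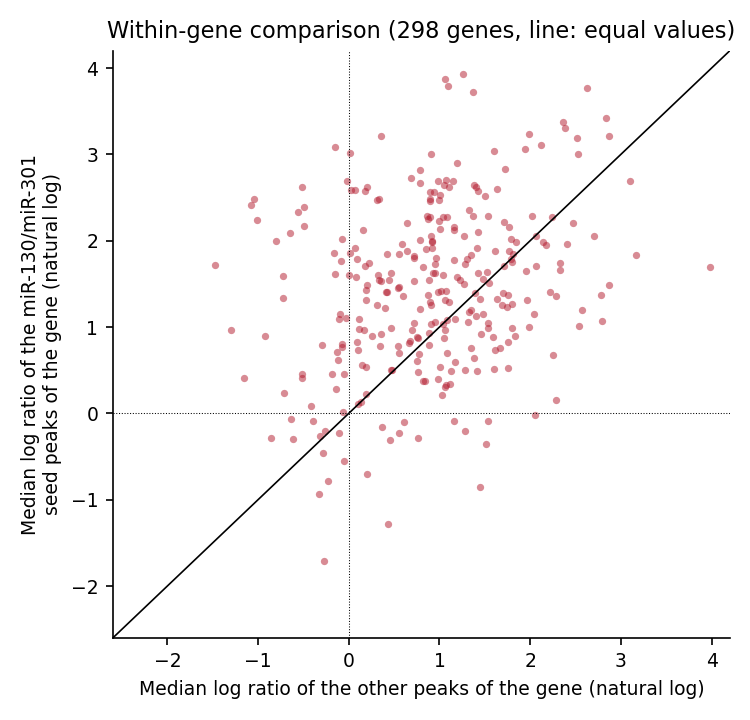
Median log ratio of the miR-130/miR-301 peaks of each of 298 genes (vertical axis) against the median of the gene's other peaks (horizontal axis), both arsenite over untreated in natural log units, with the line of equality. Points above the line, 202 genes, had the higher value at the miR-130/miR-301 peak.

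Positions of peaks are given on hg19 as the authors' table has them, and whether its starts count from 0 or 1 is not stated. The highest log ratios among peaks in the upper 75% of levels were found in genes of diverse roles. CLIP1, a protein that tracks growing microtubule ends, had a 3'UTR peak at chr12:122757041-122757092 with a log ratio of 3.93, against 1.26 at the gene's single other peak. KIT, the receptor for stem cell factor, had a 3'UTR peak at chr4:55606365-55606405 with 3.87, against 1.06 at its single other peak. RBM17, a splicing factor, had 3.79, against 1.09 at its single other peak. In these 3 genes the comparison rests on 1 other peak each.

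In other genes the remaining peaks were high as well. NDUFA7, a subunit of mitochondrial complex I, had a coding peak at 3.77, against 2.63 at its single other peak. DNAJC24, a factor of diphthamide synthesis, had 3.42 in its 3'UTR, against 2.84 at its single other peak. Similar pairs were found for DENND6A, listed as FAM116A, an exchange factor for Rab14, at 3.37 against 2.36, for the zinc finger gene ZNF800 at 3.30 against 2.38, and for ZSWIM6 at 3.19 in coding sequence against 2.52. SLC35F5, a member of a solute carrier family, had a coding peak at 3.24 against 1.99. ARL6IP1, a membrane protein of the endoplasmic reticulum, was unlike these, with 3.21 at the miR-130/miR-301 peak and 0.35 elsewhere.

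At the low end, 32 peaks in 30 genes had a log ratio of 0 or less. Of these, 18 were in 3'UTRs, a smaller share than the 79.9% of all miR-130/miR-301 peaks. A further 9 were in coding sequence, against 16.1% of all miR-130/miR-301 peaks. A miR-19 match was listed at 19 of the 32 and a miR-17 match at 2, against 48.9% and 27.3% of all miR-130/miR-301 peaks. Among the 30 of the low peaks whose gene had other peaks, the other peaks had a median below 0 for 16 (53.3%). For the miR-130/miR-301 peaks above 0 this was so at 42 of 308 (13.6%). Low peaks thus lay more often in genes whose other peaks had a median below 0. The term common to a gene's peaks enters both values, so part of this link is built in. How large that part is was not tested.

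The lowest value, -1.79, was in ZBTB18, listed as ZNF238, a transcriptional repressor. The gene's other peaks had a median of 1.16, and its other miR-130/miR-301 peak, at a higher level, had 1.61. The low peak was thus on the other side of 0 from both values. ADCY1, an adenylyl cyclase, had -1.71 against -0.27 over its other peaks. MAFG, a small Maf protein that pairs with the oxidative stress factor NRF2, had -1.64 against -0.23, while a second miR-130/miR-301 peak that overlaps the first had 0.08. NIP7, a factor of ribosome assembly, had -1.28, against 0.43 at its single other peak.

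The remaining low peaks were closer to 0. SPHK2, a sphingosine kinase, had -0.93 against -0.33 over its other peaks. KLHL21, an adaptor of a cullin ubiquitin ligase, had -0.70 against 0.20. PPP6R1, a regulatory subunit of protein phosphatase 6, had -0.55 against -0.05. Values for ZNF20, C6orf47 and FAM53B were -0.77, -0.49 and -0.46.

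The 5 peaks with the highest log averages all had log ratios above 0. This is close to the share above 0, 93.6%, among miR-130/miR-301 peaks in the highest class of level. LINC00116, also named MTLN, which encodes a small mitochondrial protein and was annotated as noncoding, had a log average of 1.74 and a log ratio of 3.11. RPS29, a protein of the small ribosomal subunit, had a 5'UTR peak with a log average of 0.13 and a log ratio of 1.34. This value is uncertain, since ribosomal protein genes have near-identical pseudogenes and no source used here says how reads that fit several places were treated. The kinases MAP3K9 and MAP3K14, of the JNK and the noncanonical NF-kappa-B pathways, had log ratios of 1.25 and 0.54. PXYLP1, listed as ACPL2, a phosphatase of glycosaminoglycan synthesis, had 1.68.

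A single miR-130/miR-301 peak was the rule, as 339 of the 376 genes had only 1. In the 37 genes with 2 or more, all of a gene's miR-130/miR-301 peaks were above 0 in 30, and the signs differed in 5. CCNG2, an unconventional cyclin, had 3 coding peaks with log ratios of 0.37, 0.68 and 2.74, the first 2 overlapping, against 2.25 over its other peaks. JARID2, a partner of Polycomb repressive complex 2, had 3'UTR peaks with 1.17, 1.14 and 1.80, the first 2 overlapping, against 1.33. Peaks of the same transcript thus differed by more than 1 unit in CCNG2. The long noncoding RNA XIST also had 3, with 1.01, -0.02 and 0.08, against -0.42 over its other peaks.

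Among all genes with an Ago2 peak, 376 of 6088 (6.18%) held a miR-130/miR-301 peak, and 92.3% of these peaks were above 0, so counts in short lists are read beside these shares. A gene with many peaks has more places for a match. The share per gene is therefore not the only scale, and per peak it was 417 of 24041. Of 20 genes of TGF-beta and bone morphogenetic protein signalling with an Ago2 peak, 2 had a miR-130/miR-301 peak: BMPR2, a type II receptor, at 0.83, and SMAD5, a signal transducer, at 0.49. Both were above 0 and below 1, and both were below the median of their gene's other peaks, 1.76 for BMPR2 and 1.13 for SMAD5. The list's other peaks had a median of 0.64. Of 18 genes of PI3K and mTOR signalling, 1 had such a peak, PIK3CB, a catalytic subunit of PI3K, at 1.51, against 1.55 over its own other peaks and a median of 0.70 over the list's other peaks. TGFBR2 had 4 Ago2 peaks with a median of 1.78 and TSC1 had 6 with a median of -0.27, and none of these peaks listed a miR-130/miR-301 match.

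LRP8 and most of the autophagy genes named here had higher values. Of the genes of lipid uptake, efflux and synthesis, LRP8, a receptor for apolipoprotein E, had a miR-130/miR-301 peak at 2.0, while its other peaks had a median of -0.80, and the list's other peaks had 0.30. Of 15 autophagy and lysosome genes, 4 had a miR-130/miR-301 peak, and all 4 peaks were at 1.00 or more. Over all miR-130/miR-301 peaks this share was 70.0%, so 4 of 4 is not set apart from the whole set. The 4 were ULK2, a kinase that starts autophagy, at 2.83, against 1.72 over its other peaks, EPG5, which tethers autophagosomes to lysosomes, at 2.12, ATG16L1, of the complex that attaches LC3 to lipid, at 1.74, and ATG2B, a lipid transfer protein, at 1.00, against 1.99 over its other peaks. The 58 other peaks of the autophagy list had a median of 0.94.

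Cell cycle and cell death genes were mixed. Of 25 with an Ago2 peak, 5 had a miR-130/miR-301 peak and 4 of those 5 were above 0. CDKN1A, the inhibitor p21, had 1.74, against 0.22 over its other peaks, the cyclin CCND2 had 2.0, against 0.92, and BCL2L11, the death-promoting protein BIM, had 0.92, against 0.35. CYLD, a deubiquitinase that restrains NF-kappa-B, had -0.31. The list's 281 other peaks had a median of 0.74.

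The microRNA machinery was the list with the most members. Of 21 genes of the microRNA pathway and mRNA decay with an Ago2 peak, 8 had a miR-130/miR-301 peak, with 10 peaks in all, 9 of them above 0. AGO1, listed as EIF2C1, an Argonaute itself, had 3'UTR peaks at 1.85 and 1.88, while its other peaks had a median of 0.01. Of the 3 TNRC6 genes, TNRC6B had 2.69, against 1.15 over its other peaks, TNRC6A 1.31, against 1.06, and TNRC6C -0.23, against 0.55. Among the partners, the helicase DDX6 had peaks at 3.04 and 0.16, against 1.04, and CNOT1, the scaffold of the deadenylase complex, had 2.29, against 1.54. DICER1, which cuts microRNA precursors, had 1.64, against 1.52, and ANKRD52, a subunit of the phosphatase that acts on Argonaute, had 0.80, against -0.07. The median of the 10 peaks was 1.75, against 0.75 over the list's 269 other peaks. Several of these genes held many peaks, with 69 in ANKRD52 and 27 in TNRC6A, so the count of 8 genes is not read as an enrichment.

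Stress granule and translation genes, chosen because arsenite acts on both, had 3 with a miR-130/miR-301 peak of 22 with an Ago2 peak. FXR1 had 2.36, against 1.32 over its other peaks, and FMR1 had 2.29, against 1.37, both RNA-binding proteins of the fragile X family, and EIF5A2, an elongation factor, had 1.98. The list's 233 other peaks had a median of 0.62.

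Of 24 chromatin regulators, 3 had a miR-130/miR-301 peak. KDM2A, a histone H3 lysine demethylase, had 1.38 and 2.32, against 0.42 over its other peaks. KDM5B, another lysine demethylase, had 1.88, against 0.64, and ARID4B, of the Sin3 complex, had 0.92, below the 1.46 of its other peaks. Of 20 ubiquitin ligases and deubiquitinases, 4 did, with USP48 at 2.51, USP32 at 2.47, RNF216 at 1.85 and FBXO28 at 1.42. The other peaks had medians of 1.00 in USP32 and 1.07 in FBXO28, and the single other peak of RNF216 had 0.55. Of 14 transcription factors, HOXA5 had 1.58, against 0.08 over its other peaks, and MYBL1 had 1.88.

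**Figure D5:**
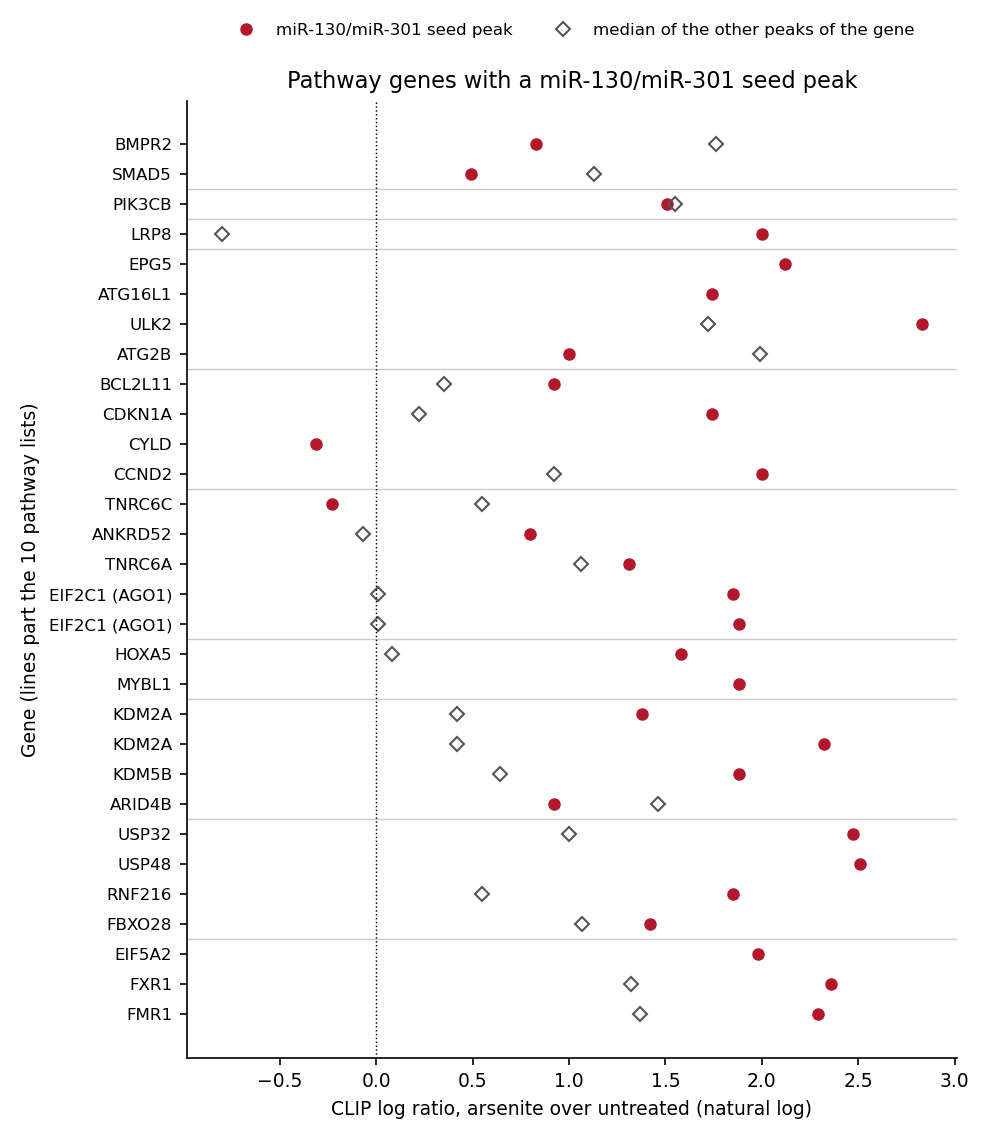
Log ratio, arsenite over untreated in natural log units, of the miR-130/miR-301 peaks of genes named from 10 lists (points, 1 per peak), beside the median of the other peaks of the same gene where it has any (open diamonds), for up to 4 genes a list. Points below 0 belong to CYLD at -0.31 and TNRC6C at -0.23.

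Further groups were formed from the names of the genes after their values were known, and they describe where else the peaks lie. Over all miR-130/miR-301 peaks, 92.3% were above 0 and 70.0% were at 1 or more, so a small group with all peaks above 0 is close to the whole set. The largest held 23 genes of phosphoinositide and endosome traffic with 27 miR-130/miR-301 peaks, all above 0 and 23 of them at 1 or more, with a median of 1.72, against 0.88 over the other peaks of these genes. MTMR9, of the myotubularin phosphatase family, had 2.71 and 1.88. ZFYVE26, a lipid-binding protein, had 2.62, against -0.52 at its single other peak. The small GTPase RAB5B had 2.47, against 0.31 over its other peaks, and RAB34 had 2.41, against -1.08 at its single other peak. CLTC, the clathrin heavy chain, had 2.06 and 1.18, against 0.93. Not all genes of the group stood above their other peaks. SACM1L had 1.49, against 2.87 over its other peaks, and RAB14 had 0.99, against 1.80. OCRL had 0.61, against 0.75, and SNX5 had 1.09, against 1.17. In STX6 both medians were 1.39.

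Other groups were less uniform. Microtubule motors and tracking proteins had 12 peaks in 9 genes, 9 of them above 0. The median was 1.68, against 0.67 over the other peaks of these genes. Values ran from CLIP1 at 3.93 and MAP1B at 3.72 to the dynein subunits DYNC1H1 at -0.16 and DYNLL2 at -0.14 and -0.28. Another dynein subunit, DYNC1LI2, had 1.75 and 0.34. Genes named ZNF had 10 peaks, 7 of them above 0, with a median of 1.19, below the 1.44 of the other peaks of these genes. Histone methylation and demethylation genes had 12 peaks, all above 0, with a median of 1.30 against 1.06. HOX genes had 5 peaks, all above 0, with a median of 0.78 against 0.54.

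Some groups bear on growth and on the response to nutrients and oxidants. Growth factor and guidance genes had 7 peaks, all above 0. Their median was 1.10, below the 1.55 of all miR-130/miR-301 peaks and above the 0.19 of these genes' other peaks. They included NRP1, a semaphorin and VEGF receptor, at 2.69, against -0.02 over its other peaks, CSF1, a macrophage growth factor, at 1.89, and MET, the receptor for hepatocyte growth factor, at 0.68. DLL1, a Notch ligand, had 0.23, against 0.19, and LRIG1, a restrainer of growth factor receptors, had 0.76, against 1.67. Of the sestrins, stress-induced regulators of mTOR, SESN2 had 2.48, against 0.33 over its other peaks, and SESN1 had 1.65, against 1.95. STK4, a Hippo pathway kinase, had 2.01 and -0.06, while its other peaks had a median of -1.30. SOD2, the mitochondrial superoxide dismutase, had 2.90, against 1.19, and TXNIP, which binds thioredoxin, had 1.70, against 0.82. STAT3, a cytokine-activated transcription factor, went the other way within its transcript, with 1.70 at the miR-130/miR-301 peak and 3.98 at its single other peak. Solute carriers had 9 peaks in 9 genes, all above 0, with a median of 1.65 against 0.97 over their other peaks.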

How the data were processed

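The authors deposited a table of Ago2 CLIP peaks and a table of microRNAs on Ago2. Bowtie 0.12.8, TopHat, DESeq and hg19 are named in the submitters' processing notes, without a role. Each deposited peak has a log average and a log ratio. The recurring within-gene steps of these deposited values match those of natural log means over 4 replicates and not log2, and no source used here gives the normalizer. The authors' microRNA table gives means (a normalised signal), the ratio or fold change, its log2, and the p-value and adjusted p-value of DESeq. No column holds values of single samples, so depth and replicate spread are unknown and no test across replicates was made.

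Peaks were chosen by the authors' family column and summarised with Python 3.11.15, pandas 2.3.3 and numpy 2.4.6. The calculation of the within-gene comparison was checked on simulated data with a known shift. This checks the arithmetic only and does not model peaks of few reads. Gene names of the authors' table were matched by transcript to RefSeq, for 376 of 376 genes. Genes named were those of the 10 highest and 10 lowest log ratios in the upper 75% of levels, the 5 highest levels, genes with 3 or more such peaks, and up to 4 genes per list; results for some genes that this rule takes are not reported here. DDX6, TNRC6B, DICER1, CNOT1, TGFBR2, TSC1, SOD2, TXNIP, STAT3, the genes of noncoding peaks and the genes of the groups formed from names were chosen after their values were seen. The members and lists were chosen with earlier results of these data known.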

Additional observations from a re-analysis of the deposited data

How the results depend on the processing

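The median log ratio of the miR-130/miR-301 peaks stayed between 1.49 and 1.59 when 1 peak per gene was kept, when peaks were limited to the upper 75% or upper 50% of levels, to 3'UTRs or to those matching no other family, and when only the peak of the highest level was kept of peaks that overlap. The share above 0 was 94.6% in 3'UTRs and otherwise stayed between 91.7% and 92.8%. The excess over the median of all peaks was 0.89, and it was 0.47 with 1 peak per gene in both sets, 0.51 for peaks matching exactly 1 family and 0.69 in 3'UTRs. The median log average, -4.83, was -4.59 in the upper 75%, -4.04 in the upper 50% and -5.01 with no other family; the 2 filters on level raise it by construction. The within-gene difference of 0.50 was 0.35 against other peaks in the same region, 0.68 against other peaks with no listed match and 0.52 against other peaks that overlap no miR-130/miR-301 peak, an alternative chosen after seeing the data. The summed microRNA change was 0.25 on the log2 scale in both settings. No paired analysis was possible because the tables hold 1 value per peak or microRNA over all replicates; leaving out each replicate was not run for the same reason. Peaks of few reads limit the precision of single values.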
